A study of Mus musculus with 12 samples.

Results

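The insulin-like growth factor (IGF) axis was followed in mouse skin as 9 genes: the growth factors Igf1 and Igf2, the receptor Igf1r, and the binding proteins Igfbp2, Igfbp3, Igfbp4, Igfbp5, Igfbp6 and Igfbp7. The genes were chosen by name, because Igf1 is a reported target of the microRNA miR-29, and with earlier results of these data known. All 15 array probes that carry these names were taken. All 9 genes passed the filter on dim probes, out of 22155 genes that did. The arrays compared 4 groups of 3 male C57BL/6 mice aged about 8 weeks, and every group received an intradermal injection. One pair of groups carried a sutured incision of 1 cm and was injected 72 h after wounding with PBS, the vehicle, or with 100 nmol of a synthetic miR-29b mimic (promiR-29). The other pair had uninjured skin and was injected with PBS or with 100 nmol of a miR-29 inhibitor, antimiR-29. Skin of the treated area was collected 24 h after the injection. Each array measured the skin RNA in the red dye, Cy5, against a universal mouse reference RNA in the green dye, Cy3, so a level is given below as a log2 ratio of skin over reference and a change as a log2 fold change between groups.

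IGF1 and IGF2 are secreted growth factors that act through the receptor tyrosine kinase IGF1R and its adaptor proteins IRS1 and IRS2, with signals passed on through PI3 kinase and AKT. The binding proteins hold the ligands in the circulation and the extracellular matrix and can either restrain or prolong their action. In skin, IGF1 made by dermal cells acts on keratinocytes and hair follicles and takes part in wound repair.

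The miR-29 family in the mouse has 3 mature forms, which are shown because the mimic and the inhibitor are named for this family. The sequences are RefSeq's on GRCm38.p6, and capitals mark the seed, bases 2 to 8, which pairs with target transcripts.
mmu-miR-29a-3p: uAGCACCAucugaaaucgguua
mmu-miR-29b-3p: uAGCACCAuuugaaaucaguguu
mmu-miR-29c-3p: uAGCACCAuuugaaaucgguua
The seed was identical in the 3 forms. The family differs in the bases after it. The miR-29b form is encoded at 2 places, on the plus strand of chr1:195037091-195037113 and on the minus strand of chr6:31063025-31063047. miR-29c lies on chromosome 1 as well, at chr1:195037600-195037621, and miR-29a on chromosome 6, at chr6:31062673-31062694. None of the 15 probes of the IGF genes contained TGGTGCT, the sense-strand letters that pair with this seed, which 0.543% of all 39429 probes contained. The probes therefore read stretches of the transcripts without this motif, which says nothing about the rest of each transcript.

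Between 65.6% and 73.8% of probes were well above background in Cy5 on each array. Intact PBS array 3 was the least like its own group (median r 0.923), and for the other 11 arrays this median r was 0.941 or more. All 8 keratinocyte markers and all 10 dermal fibroblast markers were well above background on all 12 arrays. The arrays lay on 3 slides. All of incised PBS and mimic array 1 were on slide 1, mimic arrays 2 and 3 shared slide 2 with intact PBS arrays 1 and 2, and slide 3 carried intact PBS array 3 and all of antimiR-29. In whole skin, fewer cells of a type and less RNA per cell cannot be told apart.

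Incision came with the largest differences among the IGF genes. In incised against intact skin under PBS, Igf2 rose 3.15-fold, and Igfbp3, Igfbp6 and Igf1r fell 2.19-fold, 1.61-fold and 1.44-fold. These were 4 of 9 genes called at an adjusted p under 0.05, against 15.1% of all genes tested (9.81% higher and 5.29% lower). No slide held both PBS groups, and all 4 calls were lost with slide as a fixed block (limma adjusted p from 0.2 to 0.278). The 4 changes kept their direction in that fit, at 1.43 ± 0.37 (SE) for Igf2 and −1.08 ± 0.35 for Igfbp3. Igfbp6 changed by −0.73 ± 0.25 and Igf1r by −0.69 ± 0.23 there, and all 4 standard errors were larger than in the main fit. After the mimic in incised skin 1 of 9 genes was called, Igfbp5, which fell 1.78-fold, and 0.542% of all genes were called (0.348% lower). After antimiR-29 in intact skin 1 of 9 was called, Igfbp6, which fell 1.44-fold, where 9.39% of all genes were called (4.36% lower). The median log2 fold change of the 9 genes was −0.11 with incision, −0.31 with the mimic and −0.32 with antimiR-29, and the median over all genes tested was 0.00, −0.00 and 0.01. The incised PBS and intact PBS groups each serve 2 comparisons, so these are not independent of each other.

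**Figure D1:**
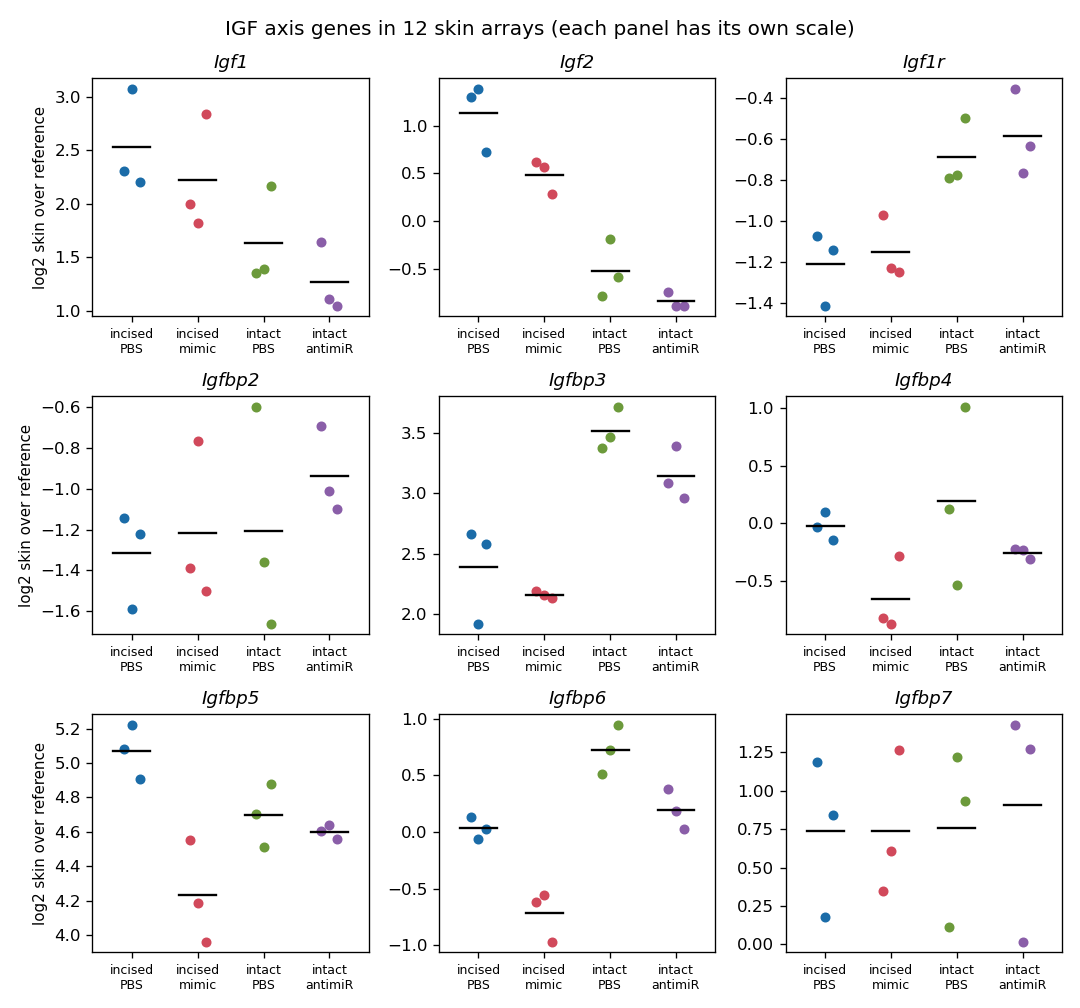
Log2 ratio of skin over reference (vertical axis, a separate scale for each gene) for the probe that stands for each of the 9 genes, in 4 groups on the horizontal axis; points are the 12 arrays and bars the group means. Igf2 was higher, and Igfbp3, Igfbp6 and Igf1r lower, on all incised PBS arrays than on all intact PBS arrays, and Igfbp5 was lower on all mimic arrays than on all incised PBS arrays.

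**Figure D2:**
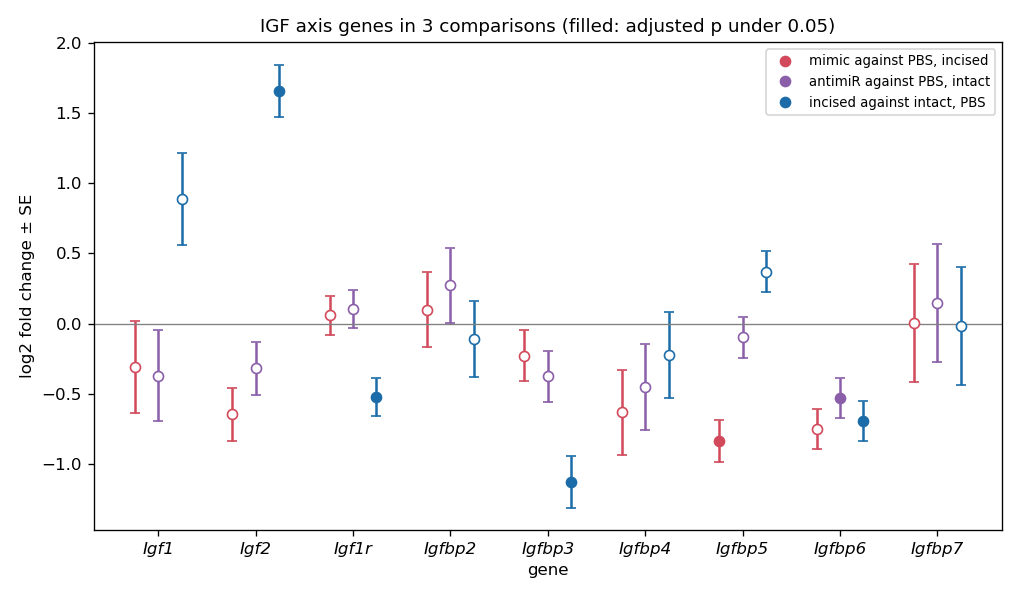
Log2 fold change ± standard error (vertical axis) of the 9 genes in 3 comparisons; filled points have an adjusted p under 0.05 in the fit over all genes. The largest filled rise is Igf2 with incision (1.66) and the largest filled fall is Igfbp3 with incision (−1.13).

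Igf2, the fetal growth factor whose expression falls after birth in most mouse tissues, showed the largest change. Its probe, A_55_P2118173 at mm9 chr7:149839661-149839720 on the minus strand, read 1.30, 1.38 and 0.73 in incised skin with PBS and −0.79, −0.19 and −0.58 in intact skin with PBS. The 3 incised arrays lay above the 3 intact arrays without overlap. The difference was 1.66 ± 0.19 (SE; limma adjusted p = 0.000625). With slide as a fixed block it was 1.43, and in the authors' deposited table it was 2.42, so its size depended on the values used. The Cy5 signal of this probe was 1.45 to 9.69 times local background.

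After the mimic, Igf2 read 0.62, 0.56 and 0.29 in incised skin. All 3 values lay below the incised PBS range, by −0.65 ± 0.19 on average, but the difference did not pass the test (limma adjusted p = 0.171). Within the slide that held both groups it was −0.52. After antimiR-29 the values were −0.74, −0.89 and −0.89, and 2 of these 3 arrays were not well above background. That difference from intact PBS was −0.32 ± 0.19 (limma adjusted p = 0.345). In the deposited table it was −0.93 (limma adjusted p = 0.219). Over the groups the order ran from incised PBS through incised mimic and intact PBS to intact antimiR, and only the last neighbours overlapped.

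Igf1, the principal growth factor of the axis and the reported miR-29 target, was read by 5 probes. Of these, 4 lie on the transcript NM_010512 at positions 889, 909, 3252 and 6909, within mm9 chr10:87393561-87399640 on the plus strand. The distance from the first to the last is 6020 bases both on the transcript and in the genome, so no intron lies between them. The first 2 overlap by 40 bases and are not separate measurements of the gene. The fifth probe lies on the variant NM_184052, 15105 bases upstream in the genome.

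The brightest of them, A_55_P2031631 at position 909, read 2.31, 3.07 and 2.20 in incised PBS skin. Mimic-treated incisions gave 2.00, 1.83 and 2.84, a range that overlapped with PBS. The difference was −0.31 ± 0.33 and did not pass the test (limma adjusted p = 0.783). Intact PBS skin gave 1.35, 1.39 and 2.17, below the incised PBS arrays without overlap. With incision the difference was 0.89 ± 0.33, a 1.85-fold higher mean, which also missed the threshold (limma adjusted p = 0.0909). Without intact PBS array 3 it was 1.16, with a limma adjusted p of 0.0467, and without incised PBS array 2 it was 0.62, with a limma adjusted p of 0.267. It was 0.42 in the authors' deposited table and 0.43 as the mean over probes (limma adjusted p = 0.385 and 0.249), and 1.49 with slide as a fixed block (0.311). AntimiR-29 gave 1.64, 1.11 and 1.05, within or below the intact PBS range, a difference of −0.37 ± 0.33 (limma adjusted p = 0.548). Across the other settings this difference ran from −1.08 with Cy5 alone (limma adjusted p = 0.104) to −0.07 in the deposited table. Leaving out array 3 of intact PBS gave −0.10.

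The spread of Igf1 within groups followed particular arrays. Incised PBS array 2, mimic array 3 and intact PBS array 3 were the highest of their groups for this probe, and the same 3 arrays had the highest adipocyte marker scores of their groups. A score is the median over the listed markers of log2 ratios centred over the 12 arrays, and it was 0.93, 0.57 and 0.89 on these 3 arrays and between −0.84 and −0.02 on the other 9. The top array for Igf1 was the same as that for the adipocyte markers in 3 of 4 groups, and likewise for the endothelial and the smooth muscle markers, but in 1 of 4 groups for the fibroblast markers. Of the 8 adipocyte markers, 7 were well above background on all arrays and 0 passed the test in any of the 3 comparisons. All 8 had log2 fold changes below 0 with the mimic (median −0.38) and with antimiR-29 (median −0.49). With incision 3 were above 0 and 5 below (median −0.16). The part of these cells in the Igf1 values was not tested.

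Along the Igf1 transcript the probes did not move alike. With the mimic the log2 fold change was −0.14 at position 889, −0.31 at 909, −0.59 at 3252 and −0.78 at 6909, and for none of these probes did it pass the test on its own (0.503% of all kept probes did). At 3252 the mimic arrays (0.46, 0.57 and 1.06) lay below the incised PBS arrays (1.17, 1.57 and 1.11) without overlap. At the other positions these groups overlapped, and 23.8% of all genes did not overlap in this comparison. With incision the log2 fold change was 0.68, 0.89, 0.35 and −0.12 at the same positions, so the upstream probes were higher and the most downstream probe was close to level. With antimiR-29 the 4 values were −0.27, −0.37, 0.05 and −0.09. The variant probe changed by −0.09 ± 0.08 with the mimic and 0.06 ± 0.08 with antimiR-29. It rose by 0.35 ± 0.08 with incision (limma adjusted p = 0.0154 over all kept probes, of which 15.2% were called).

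**Figure D3:**
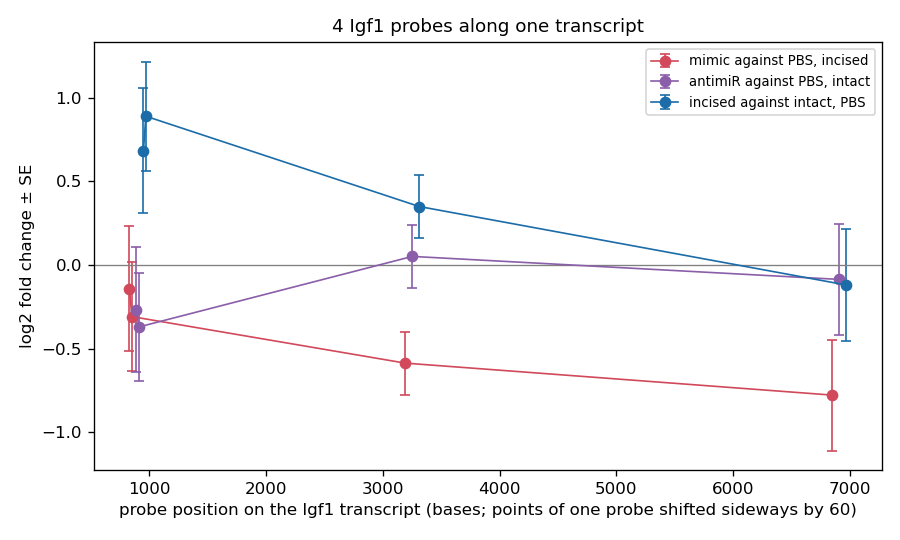
Log2 fold change ± standard error (vertical axis) against position on the Igf1 transcript in bases (horizontal axis) for 4 probes in 3 comparisons; points of one probe are shifted sideways for legibility and lines join the probes of one comparison. With the mimic the values run from −0.14 at position 889 to −0.78 at position 6909, and with incision from 0.68 to −0.12.

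The difference between the most downstream and the most upstream of these probes was then taken within each array, which removes what both probes share on that array. This quantity was chosen after the probe values were seen. It was 0.39, −0.04 and 0.07 in incised PBS skin and −0.49, −0.63 and −0.37 after the mimic, so the groups did not overlap. In intact skin it was 1.06, 1.05 and 0.72 with PBS and 0.89, 1.31 and 1.17 with antimiR-29, and both intact groups lay above both incised groups.

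Set beside 3542 transcripts with such a pair of probes, the Igf1 difference fell by 0.80 ± 0.15 with incision (limma adjusted p = 0.00466), a comparison in which 17.4% of transcripts were called (12.1% lower and 5.36% higher) and the median over all of them was −0.04. With the mimic it was −0.64 ± 0.15, with an unadjusted p of 0.00103 and a limma adjusted p of 0.262, where 0.0847% of transcripts were called. With antimiR-29 it was 0.18 ± 0.15 (limma adjusted p = 0.449), where 19.8% were called. Most of those were higher (17.8%, against 2.03% lower), and the median over all transcripts was 0.13, near the Igf1 value. The mimic effect minus the antimiR effect was −0.82 ± 0.21 (limma adjusted p = 0.0381), and 7.34% of transcripts were called in it. Here too transcripts shifted mainly one way, the same way as Igf1, with 6.75% lower, 0.593% higher and a median of −0.14. The part of this general shift in the Igf1 value was not tested. Its limma adjusted p was 0.156 with Cy5 alone and 0.132 with slide as a fixed block, and leaving out single arrays moved it between 0.0272 and 0.0935. It stayed under the threshold when array 2 of incised PBS, array 1 of intact PBS or array 1 of antimiR-29 was left out, and missed it without any one of the other 9 arrays. Within slides the change was −0.63 with the mimic and 0.41 with antimiR-29.

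**Figure D4:**
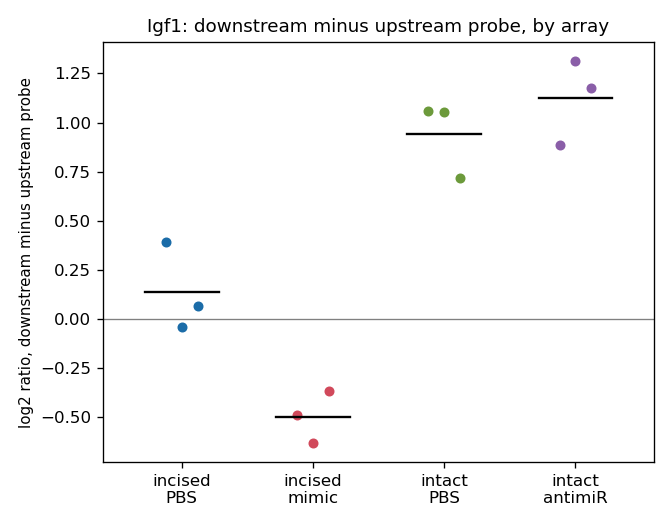
Log2 ratio of the most downstream Igf1 probe minus that of the most upstream one (vertical axis) in 4 groups of 3 arrays (horizontal axis); points are arrays and bars group means. The mimic arrays sit between −0.63 and −0.37, the incised PBS arrays between −0.04 and 0.39, and the 6 intact arrays between 0.72 and 1.31.

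Igf1r, the receptor tyrosine kinase for both ligands, was read at position 11885 of its transcript by probe A_66_P105801, mm9 chr7:75378461-75378520 on the plus strand. It read −1.07, −1.42 and −1.15 in incised PBS skin and −0.79, −0.78 and −0.50 in intact PBS skin. All incised arrays were below all intact arrays, and the receptor fell by 0.52 ± 0.14 with incision (limma adjusted p = 0.0291). The limma adjusted p was 0.0564 in the authors' deposited table of log2 values and 0.0649 with only the 2 PBS groups in the fit. It lay between 0.0408 and 0.102 when single arrays were left out, and incised PBS arrays 2 and 3 and intact PBS array 3 each ended the call. Neither oligonucleotide moved it past the threshold. Mimic-treated skin gave −0.97, −1.23 and −1.25, a difference of 0.06 ± 0.14, and antimiR-treated skin gave −0.36, −0.77 and −0.64, a difference of 0.10 ± 0.14.

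Igfbp3, the main carrier of IGFs in the circulation, was read by a bright and a dim probe. The bright probe, A_52_P253179 at mm9 chr11:7106594-7106653 on the minus strand, read 2.66, 1.92 and 2.58 in incised PBS skin and 3.37, 3.47 and 3.71 in intact PBS skin. The incised arrays were lower without overlap, and the gene fell by 1.13 ± 0.18 (limma adjusted p = 0.00359). The size of this fall depended on the values used. It was 2.17 on the log2 scale with Cy5 alone, a setting without the reference channel. In the authors' deposited table the difference was −0.59, with a limma adjusted p of 0.253. As the mean over probes it was −0.65, with a limma adjusted p of 0.0136. The call held in 10 of 12 other settings, not in the deposited table or with slide as a fixed block. It also held in all 6 fits that left out a single array. The dim probe, A_55_P1992715 at mm9 chr11:7107949-7108008, differed by only −0.17 ± 0.13 with incision (limma adjusted p = 0.416), so the probes disagreed. The dim probe lies on another transcript, and its Cy5 signal was only 1.63 to 2.93 times local background. For the bright probe the signal was 19.6 to 204 times local background.

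The bright Igfbp3 probe read 2.19, 2.16 and 2.13 after the mimic, inside the incised PBS range, a difference of −0.23 ± 0.18 (limma adjusted p = 0.695). After antimiR-29 it read 3.08, 3.39 and 2.96, a difference of −0.37 ± 0.18 from intact PBS (limma adjusted p = 0.244). The dim probe fell by 0.48 ± 0.13 in the same comparison, from 0.66, 0.88 and 1.01 to 0.43, 0.26 and 0.43 (limma adjusted p = 0.0414 over all kept probes, of which 11.1% were called). All signals of this probe lay near background, and antimiR array 1 was not well above it.

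Igfbp6, a binding protein with a preference for IGF2, separated all 3 comparisons by array. Its probe, A_66_P139546 at mm9 chr15:101979852-101979911 on the plus strand, read 0.51, 0.72 and 0.94 in intact PBS skin. AntimiR-treated skin gave 0.38, 0.19 and 0.02, all lower, and the gene fell by 0.53 ± 0.14 (limma adjusted p = 0.042). Incised PBS skin gave 0.14, −0.06 and 0.03, again below all intact PBS arrays, and the fall with incision was 0.69 ± 0.14 (limma adjusted p = 0.0103). Mimic-treated incisions gave −0.61, −0.55 and −0.97, below all incised PBS arrays. That difference, −0.75 ± 0.14, was the largest of the 3 but had a limma adjusted p of 0.0502 and was not called. It passed in 3 of 13 other settings, with scaling between arrays (limma adjusted p = 0.0473), with the filter on all 12 arrays (0.0496) and with only the groups compared (0.0345). In the first and the last of these Igfbp5 was not called, so Igfbp6 was then the only member called with the mimic.

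Igfbp6 was thus highest in intact PBS skin, and the antimiR and incised PBS groups overlapped in the middle of its order. The antimiR call was narrow. Its limma adjusted p was 0.126 with only the groups compared in the fit, 0.0733 with Cy5 alone and 0.0571 in the authors' deposited table. Without any one of intact PBS arrays 2 and 3 and antimiR arrays 2 and 3 it lay between 0.0876 and 0.135. Within slide 3, with 1 array of intact PBS and 3 of antimiR-29, the change was −0.75. Within slide 1 the mimic change was −0.65.

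Igfbp5, a binding protein that also attaches to the extracellular matrix, was the only IGF gene called with the mimic. Its probe, A_52_P281702 at mm9 chr1:72904829-72904888 on the minus strand, read 5.08, 5.22 and 4.91 in incised PBS skin and 4.55, 4.19 and 3.96 after the mimic. All mimic arrays lay below all PBS arrays, and Igfbp5 fell by 0.84 ± 0.15 (limma adjusted p = 0.0376). The means of the intact groups lay between these levels. Their arrays read 4.71, 4.51 and 4.88 with PBS and 4.60, 4.64 and 4.56 with antimiR-29, a difference of −0.10 ± 0.15 (limma adjusted p = 0.748). With incision the difference was 0.37 ± 0.15, without overlap but not called (limma adjusted p = 0.114).

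The Igfbp5 call did not hold in 9 of 13 other settings, where the change stayed between −0.85 and −0.52 and the limma adjusted p ranged up to 0.554. It also did not hold when any one of incised PBS arrays 1, 2 and 3 or mimic arrays 2 and 3 was left out, with limma adjusted p values up to 0.164. Within slide 1, which held the 3 PBS arrays and mimic array 1, the change was −0.52. The difference between the mimic effect and the antimiR effect on Igfbp5 was −0.74 ± 0.21 (limma adjusted p = 0.124).

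Igfbp4, a binding protein that blocks IGF action until it is cut by the protease PAPP-A, was read by probe A_52_P257502 at mm9 chr11:98913334-98913393 on the plus strand. It gave −0.03, 0.10 and −0.15 in incised PBS skin and −0.82, −0.87 and −0.28 after the mimic. The mimic arrays were lower without overlap, by −0.63 ± 0.30, but the difference was not called (limma adjusted p = 0.448). Intact PBS skin spread widely, with 0.12, −0.54 and 1.01, and antimiR-treated skin was tight, with −0.22, −0.24 and −0.31. Here the difference was −0.45 ± 0.30 (limma adjusted p = 0.415) and turned on intact PBS array 3. Against that array alone, on its slide, the change was −1.26, and without it −0.05. The within-slide value has a limma adjusted p of 0.0232, but its PBS arm is 1 array, assumed to vary like the arrays of the other groups.

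Igfbp2, which carries an integrin-binding motif, was read by 2 probes at mm9 chr1:72898677-72898736 and chr1:72898813-72898872. The brighter one ran from −1.59 to −1.14 in incised PBS skin, from −1.50 to −0.76 after the mimic, from −1.66 to −0.60 in intact PBS skin and from −1.10 to −0.69 after antimiR-29. All groups overlapped with their controls, and neither probe was called in any comparison. The largest difference of the brighter probe was 0.27 ± 0.27, with antimiR-29.

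Igfbp7, a secreted relative of the family with low affinity for IGFs, varied more between arrays of a group than between groups. Its probe, A_55_P2018611 at mm9 chr5:77778271-77778330, ran from 0.18 to 1.18 in incised PBS skin, from 0.35 to 1.26 after the mimic, from 0.11 to 1.22 in intact PBS skin and from 0.02 to 1.43 after antimiR-29. The differences were 0.00, 0.15 and −0.02 with the mimic, antimiR-29 and incision, each with a standard error of 0.42, the largest of the 9 genes.

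By arrays, the groups did not overlap for 4 of 9 genes with the mimic, all lower (Igf2, Igfbp4, Igfbp5 and Igfbp6), where 23.8% of all genes did not overlap (11.5% lower). With incision this held for 6 of 9 genes (34.9% of all genes, 19.9% higher and 15% lower), with Igf1, Igf2 and Igfbp5 higher and Igf1r, Igfbp3 and Igfbp6 lower. With antimiR-29 it held for Igfbp6 alone, which was lower (25.7% of all genes, 11.7% lower). The mimic effect minus the antimiR effect was called for 0 of 9 genes with limma, against 1.07% of all genes, and 1 of the 9, Igfbp5, had an unadjusted p under 0.05.

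Markers of other cells moved in the same comparisons. Of all genes tested, 0.348% were called lower with the mimic and 9.81% higher with incision. With antimiR-29, 5.03% of all genes were called higher and 4.36% lower. With the mimic, 3 of 10 dermal fibroblast markers fell (Pi16, Clec3b and Dpt) and the list's median was −0.52, with array scores of −0.42 to −0.30 against 0.25 to 0.29 with PBS. Pdgfra, another marker of that list, was level at 0.00. Of the skeletal muscle markers 3 of 10 were lower with the mimic, with a median of −0.59. Macrophage scores were 0.64 to 0.81 with the mimic against 0.37 to 0.45 with PBS, where 0 of 10 markers were called and 5 were above 0 and 5 below (median 0.04). With antimiR-29, 4 of 10 macrophage markers rose (Trem2, Fcgr1, Cd68 and Ms4a7), another 4 had values below 0 that did not pass the test, from −0.83 for Cd163 to −0.23 for Csf1r, and 2 of 10 muscle markers fell. With incision, 7 of 10 macrophage markers rose, and the median over that list was 1.28. Of the muscle markers 2 of 10 rose with incision (Pvalb and Myh4), while 5 were above 0 and 5 below, with a median of 0.02. Macrophage scores were 0.37 to 0.45 on incised PBS arrays and −1.16 to −0.41 on intact PBS arrays. Hair follicle scores were −0.48 to −0.11 and −0.43 to 2.52 in the same groups, the highest on intact PBS array 2, and 0 of 10 hair follicle markers were called. The part of these cells in the changes of Igf2, Igfbp3, Igfbp5 and Igfbp6 was not tested.

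Further genes of the pathway were taken as a list of 33 genes that regulate, bind or transmit IGF signals, of which 30 were measured. With the mimic 0 of 30 passed the limma test, where 0.542% of all genes were called. The largest difference was in Irs1, the insulin receptor substrate that docks PI3 kinase, at −0.95 ± 0.21 (limma adjusted p = 0.08). Its second probe gave −0.74. Leaving out mimic array 3 gave −1.25 with a limma adjusted p of 0.0205, and leaving out any other array gave −0.99 to −0.76 with no call (limma adjusted p up to 0.287). Irs2, the related substrate, changed by 0.09 ± 0.18.

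With antimiR-29, 3 of 30 pathway genes rose and 2 fell, where 9.39% of all genes were called. Pik3r1 and Pik3ca, the regulatory and catalytic subunits of PI3 kinase, fell by 0.66 ± 0.16 and 0.46 ± 0.11 (limma adjusted p = 0.0286 and 0.0278). The adaptor Grb2 rose by 0.55 ± 0.08, the RNA-binding protein Igf2bp2 by 0.56 ± 0.13 and the kinase Jak2, which signals for the growth hormone receptor, by 0.36 ± 0.08. Grb2 alone kept its call without any single array. Of 6 such fits, Igf2bp2 was not called in 4, Pik3ca in 3, and Pik3r1 and Jak2 in 2 each, and the number of pathway genes called ran from 1 to 5. It ran from 1 to 7 across the other settings. Both probes of Grb2 were called, and the second probe of Igf2bp2, at 0.37, was not.

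With incision, 3 of 30 rose and 1 fell, where 15.1% of all genes were called, and all 4 calls were lost with slide as a fixed block (limma adjusted p from 0.246 to 0.388). Grb10, an adaptor that restrains signalling by the insulin and IGF receptors, rose by 1.10 ± 0.19 (limma adjusted p = 0.00461), Igf2bp2 by 0.75 ± 0.13 and Grb2 by 0.38 ± 0.08. Foxo1, the transcription factor held out of the nucleus by AKT, fell by 0.90 ± 0.20 (limma adjusted p = 0.0136), and both of its probes were called, as were both of Igf2bp2. Grb2's second probe changed by 0.02 ± 0.08 (limma adjusted p = 0.903), so its probes disagreed. Without incised PBS array 1 the limma adjusted p of Foxo1 was 0.0515. The median log2 fold change of the list was −0.04 with the mimic, 0.04 with antimiR-29 and 0.06 with incision.

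The receptors and processing enzymes around the axis did not pass the test in the main fit. Igf2r, which clears IGF2 from the cell surface, changed by −0.16 ± 0.14 with the mimic, −0.03 ± 0.14 with antimiR-29 and 0.18 ± 0.14 with incision. Insr, the insulin receptor, changed by −0.28, −0.44 and −0.39, each ± 0.21. With antimiR-29 Insr was called in 3 of 13 other settings, across which its change ran from −0.90 to −0.37. Pappa, the protease that cuts IGFBP4, changed by −0.11, 0.18 and 0.34, each ± 0.19. Ghr, the growth hormone receptor upstream of Igf1 in liver, had a standard error of 0.67 and changes of −0.41, −0.67 and −0.53.

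**Figure D5:**
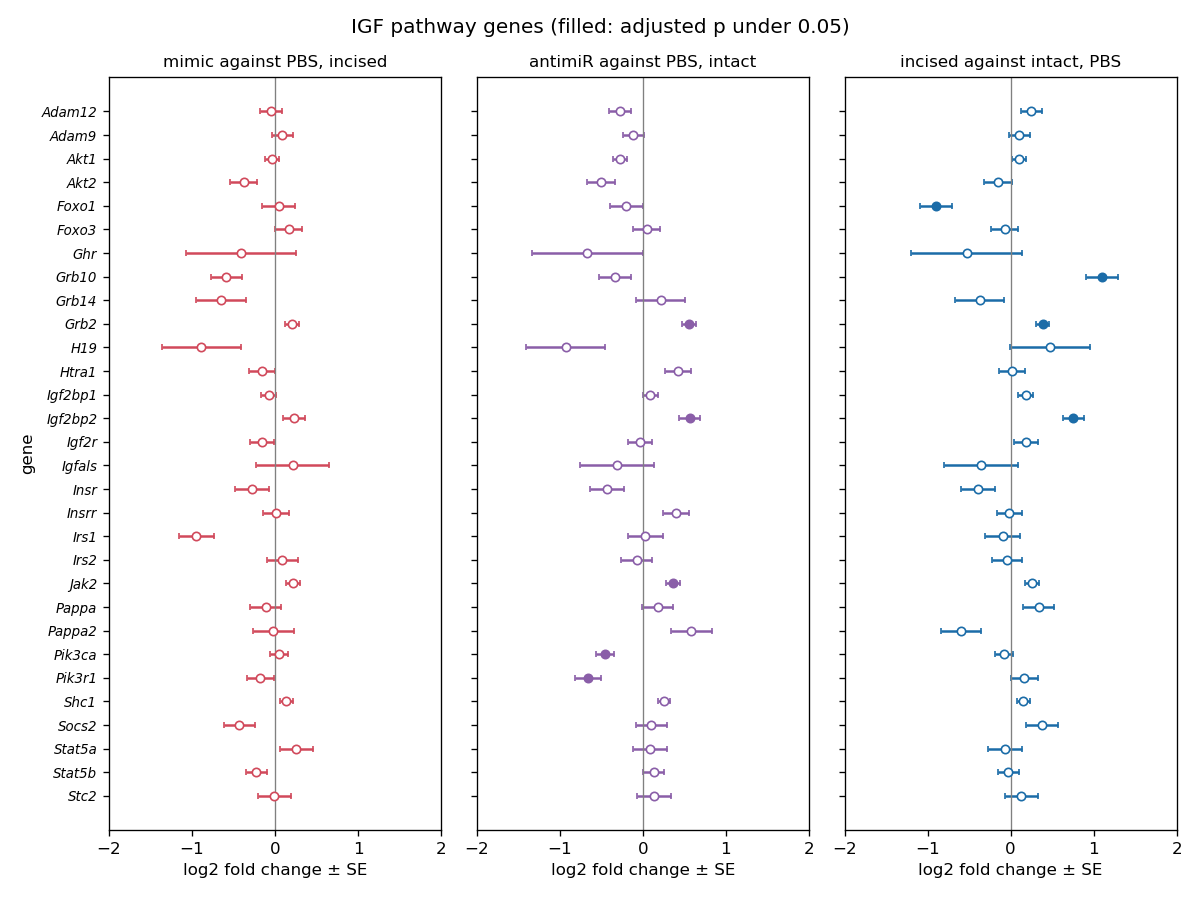
Log2 fold change ± standard error (horizontal axes) of the 30 measured IGF pathway genes (vertical axis) in 3 comparisons, one panel each; filled points have an adjusted p under 0.05 in the fit over all genes. No point is filled with the mimic, 5 are filled with antimiR-29, of which Pik3r1 is lowest at −0.66, and 4 with incision, with Grb10 highest at 1.10.

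Across the 12 arrays, Igfbp3 and Igfbp6 ran closely together (Pearson r = 0.86), and both followed Igf1r (r = 0.83 and 0.67). Igf2 ran opposite to Igf1r (r = −0.83) and Igfbp3 (r = −0.78). These correlations describe 12 arrays that share the 4 group means, which the incision separates. Among 15259 other genes, those most like Igf2 were Tnni1 (r = 0.97), which encodes slow troponin I, Dclk1 (0.96) and Msln (0.96). Osr2, Crbn and Syne2 were most like Igfbp3, with r of 0.97, 0.97 and 0.96. Igfbp6 was followed most closely by Pomgnt1 (0.98), Cacnb1 (0.97) and Wnt11 (0.97). For Igf1 the nearest were Pde2a (0.96), Fam115a (0.95) and Vsir (0.93). Igfbp7 had no close companion, with Tril the nearest at 0.82.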

How the data were processed

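Per the labels, total RNA from skin was labelled with Cy5 and the reference RNA with Cy3 on Agilent arrays, without a dye swap. Per the file headers, the deposited scanner files hold spot and background intensity extracted with Feature Extraction 11.5.1.1, its processed intensity, and their log10 ratio, red over green. The authors also deposited a table of log2 values by gene. Its columns correlated at 0.891 to 0.918 with the scanner files' skin over reference, with column medians of −0.04 to 0. How it was scaled is not given in the sources used here.

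Mean signals were corrected with normexp (offset 50) and loess within arrays in limma 3.58.1 (R 4.3.3). Control spots and outlier-marked spots were left out. Probes whose red signal the scanner software marked as well above background on 3 or more of the 12 arrays were kept (28837 of 39429), and the brightest kept probe stood for a gene. Other named probes were fitted in a second run over all kept probes. Symbols came from RefSeq for 27655 probes and otherwise from the scanner files, whose positions are on mm9. Group means of all 12 arrays were fitted with lmFit and eBayes, with Benjamini-Hochberg adjustment over all genes, 2-sided. Other settings changed the background correction, scaling, channel, dim-probe filter, probe rule, groups fitted or block, or left out an array. The fit was tested on simulated data. P-values set a difference of group means against the spread between arrays within groups, pooled over all groups and moderated over all genes. In the main fit they do not cover differences between slides, and 3 arrays a group limit the precision.

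The members, the pathway list and the marker lists were chosen with earlier results of these data known. All members were to be named, with the pathway genes called in a comparison, Igf2r, Insr, Irs1, Irs2, Pappa, Pik3r1 and Ghr in each, the 3 genes most like a member, and up to 4 markers a list. A gene of the pathway list is not reported here. Markers covered 8 cell types of skin. Endothelial and keratinocyte markers gave no call in any comparison, and among smooth muscle markers Rgs5 was lower with antimiR-29 and Mcam and Acta2 were higher with incision.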

Additional observations from a re-analysis of the deposited data

Results flagged for a closer look

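One result passed a test between the mimic and antimiR effects, on a quantity chosen after the Igf1 probe values were seen. The downstream minus upstream difference changed by −0.64 ± 0.15 with the mimic in incised skin and by 0.18 ± 0.15 with antimiR-29 in intact skin, and the test of one effect minus the other gave −0.82 ± 0.21 (limma adjusted p = 0.0381). The call was lost in 9 of 12 fits that left out an array, with Cy5 alone (limma adjusted p = 0.156), with slide as a fixed block (0.132) and with the replicate block (0.0674). Over all probe pairs 239 were lower and 21 higher in this test. The comparison also differs by the incision, which cannot be told apart from the choice of oligonucleotide here.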

How the results depend on the processing

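Of 1471 values of single genes and of the Igf1 probe difference under other settings, 1286 kept their direction and their side of the threshold, 80 lost a call, 11 gained one and 94 changed sign. No call changed sign, and none of the changed signs was a call under the other setting.

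Members called were 1 with the mimic, 1 with antimiR-29 and 4 with incision. With the mimic 0 were called with processed signals, Cy5 alone, the deposited table, slide as a random or fixed block, within the slide and with the replicate block, and 2 with a filter on all 12 arrays. With scaling between arrays and with only the groups compared the 1 called was Igfbp6, not Igfbp5. With antimiR-29 0 were called with Cy5 alone, the deposited table, only the groups compared and the replicate block, and 2 with slide as a fixed block and within the slide (Igfbp4 and Igfbp6, against a single intact PBS array). With incision 2 were called in the deposited table and 0 with slide as a fixed block. Leaving out single arrays gave 0 to 1 with the mimic, 0 to 1 with antimiR-29 and 3 to 4 with incision. For the difference of effects the count was 0 throughout.

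Genes called over the whole array ranged from 0 to 451 with the mimic (120 in the main setting), from 576 to 2282 with antimiR-29 (2079), from 12 to 3412 with incision (3344) and from 17 to 417 for the difference of effects (237) across settings, and from 1 to 52, 1166 to 2235, 1779 to 3135 and 85 to 469 without single arrays.

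Signs changed as follows, none at an adjusted p under 0.05, and the cause was not tested. With the mimic they changed for Igfbp7 at −0.069 (processed signals and deposited table), −0.038 (random slide block) and −0.39 (fixed block and within slide), and under the last 2 for Igfbp2 at −0.070 and Irs2 at −0.053. With antimiR-29 they did for Igf1r at −0.065, Igf2r at 0.028 and Irs2 at 0.12 (Cy5 alone), Irs1 at −0.21 (deposited table) and −0.13 (mean over probes), and Igf1r at −0.089 and Igfbp7 at −0.027 (fixed block and within slide). With incision they did for Irs2 at 0.058 (Cy5 alone), Irs1 at 0.10 (deposited table) and 0.15 (mean over probes), Igfbp7 at 0.043 (random block), and under the fixed block Ghr at 0.61, Igfbp4 at 0.43, Igfbp5 at −0.019, Igfbp7 at 0.66, Irs1 at 0.21 and Irs2 at 0.40. For the difference of effects they did for Igf2 at 0.21 (processed signals and deposited table), Igf1 at −0.37 (deposited table) and −0.26 (mean over probes), Ghr at −0.20, Igf1r at 0.17, Igfbp7 at 0.044 and Irs2 at −0.057 (Cy5 alone), Igf1r at 0.027 (random block), and under the fixed block Igf1r at 0.33, Igf2r at 0.32, Igfbp4 at 0.47 and Igfbp6 at 0.097.

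Without single arrays, uncalled values crossed 0 with the mimic for Ghr (−1.13 to 0.12), Igf1r (−0.043 to 0.13), Igfbp2 (−0.13 to 0.24), Igfbp7 (−0.27 to 0.23) and Pappa (−0.25 to 0.050). With antimiR-29 they did for Igf1r (−0.011 to 0.20), Igf2r (−0.15 to 0.12), Igfbp7 (−0.17 to 0.59), Irs1 (−0.033 to 0.14) and Irs2 (−0.31 to 0.15). With incision they did for Ghr (−1.05 to 0.066), Igfbp2 (−0.34 to 0.19), Igfbp4 (−0.59 to 0.18), Igfbp7 (−0.34 to 0.26) and Irs2 (−0.27 to 0.185). For the difference of effects they did for Ghr (−0.46 to 0.79), Igf1 (−0.25 to 0.33), Igf1r (−0.15 to 0.070), Igfbp2 (−0.48 to 0.055), Igfbp3 (−0.086 to 0.28), Igfbp4 (−0.59 to 0.19), Igfbp7 (−0.59 to 0.17), Insr (−0.072 to 0.32) and Irs2 (−0.065 to 0.39).

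The replicate numbers were not used as pairs in the main fit. Of 18 pairs with the same number, 7 had correlated deviations above 0.1, over a range of −0.46 to 0.49. Pairs of unlike number were not compared, so these values cannot decide whether the numbers pair the samples. Among the members, the fit with the replicate block lost the calls of Igfbp5 with the mimic (limma adjusted p = 0.0593) and Igfbp6 with antimiR-29 (0.0722), and it also lost that of the Igf1 probe difference (0.0674) in the difference of effects. Igf2 has no value under the filter on all 12 arrays. The within-slide setting exists only for mimic and antimiR-29. With only the groups compared, the difference of effects is the main fit. The Igf1 probe difference was added after the data were seen.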
